A study of Homo sapiens with 24 samples.

Results

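The genes described here are the LIM-only factors LMO2 and LMO4, the LIM and PDZ domain protein LMO7, and the LIM domain binding cofactors LDB1 and LDB2, 5 genes found by symbol in the RNA-Seq tables. LMO2 was selected on its rise in Hs578T BCSCs, so its values in Hs578T are given as a description without a test, and the other members were chosen with it for their family or partnership. All 5 were listed in the Hs578T table of 19283 rows, in the table with KIF20A sg1 of 60651 rows and in the table with KIF20A OE of 23792 rows, and 4 of the 5 in the HCC70 table of 18248 rows, which listed no LDB2. After a filter for a mean of at least 1 over the 6 libraries of a table, 5 members were tested in Hs578T, 3 in HCC70, 3 in the table with KIF20A sg1 and 4 in the table with KIF20A OE.

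LIM domains are zinc-binding folds that hold proteins together rather than bind DNA. LMO2 and LMO4 consist of little besides a pair of LIM domains and join DNA-binding factors, such as GATA factors and the basic helix-loop-helix proteins TAL1 and TCF3, to LDB1 or LDB2, which self-associate and bring such complexes together. LMO2 is best known from blood and endothelial development and as an oncogene of T cell leukaemia, LMO4 from mammary epithelium and breast cancer, and LMO7, despite its name, as a larger protein of cell junctions that binds afadin, α-actinin and the nuclear envelope protein emerin.

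The study compared breast cancer stem-like cells (BCSCs) with non-BCSCs and examined the mitotic kinesin KIF20A in 24 libraries of 3 established TNBC cell lines, with 3 biological replicates in each of 8 conditions. BCSCs of wild-type Hs578T and HCC70 cells were sorted by FACS as CD24-CD44+ and ALDH+, non-BCSCs had neither phenotype, and each line was a batch of its own in the labels. MDA-MB-231 cells carried either a lentiviral control sgRNA (sgCtrl) or KIF20A sgRNA #1 (sg1) after puromycin selection in batch 3. Batch 4 was labelled MDA-MB-231 with an empty control vector (EV) or a KIF20A overexpression vector (KIF20A OE). The knockdown rests on 1 guide here. Since all libraries are bulk RNA, fewer cells of a type and less RNA per cell cannot be told apart.

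Recovered depth was 24673741 to 33715701 reads per library in the sorted lines, 41424338 to 51018667 with sgCtrl or sg1 and 15971297 to 22182293 with EV or KIF20A OE. KIF20A, the targeted gene, was 153, 173 and 156 in sgCtrl and 122, 145 and 91.1 in sg1 (reads divided by 1 factor per library), a log2 fold change of -0.45 that did not pass (adjusted P = 0.69). The paper judged depletion by KIF20A sgRNAs in these cells from protein, by immunoblot, which RNA values do not measure. KIF20A RNA was 101, 143 and 124 CPM in EV and 1348, 269 and 896 CPM in libraries that carry the label KIF20A OE (OE-labelled libraries), a log2 fold change of 2.49 (adjusted P = 0.0025). These 3 libraries stood apart from EV well beyond KIF20A. CD44, the surface marker used for sorting, was 523 to 788 CPM in EV and 0.125 to 1.23 CPM in them, AXL was 811 to 1110 CPM against 0.75 to 0.811 CPM, and IRS4 and CDKN2A, listed at 0 in every EV library, had means of 1571 and 322 CPM. Whether these libraries came from the same cell line as EV, as labelled, was not tested. Every comparison with EV below rests on these libraries, and none can be given without them.

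LMO2, which bridges GATA and helix-loop-helix factors to LDB1, was at 20.1, 21.1 and 18.9 TPM in Hs578T non-BCSCs and at 39.4, 36.6 and 39.9 TPM in Hs578T BCSCs. The 3 BCSC libraries were all above the 3 non-BCSC libraries, with 1165 to 1354 reads behind each BCSC value and 566 to 666 behind each non-BCSC value. These are the values it was selected on: the means of 38.6 ± 1.80 and 20.0 ± 1.07 TPM (SD, n = 3) differed 1.93-fold, and its log2 fold change on the log2(TPM + 1) scale, 0.91, was the 24th highest of 13324 genes. Among the members, LMO2 moved from the lowest level per length in Hs578T non-BCSCs to a level close to that of LDB2 in BCSCs. As a share of the LMO4 level, LMO2 was 45.5, 48.5 and 46.5% in non-BCSCs and 81.3, 73.6 and 83.9% in BCSCs. As a share of LDB1 and LDB2 together, it was 29.4, 31.1 and 28.7% in non-BCSCs and 60.2, 60.7 and 56.2% in BCSCs.

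In HCC70, LMO2 had only 1, 0 and 1 reads in non-BCSCs and 1, 4 and 2 reads in BCSCs, at most 0.125 TPM. With 2 against 7 reads in all, the ratio of BCSCs to non-BCSCs was 3.08 with a 95% exact interval of 0.587 to 30.4, which covers counting error only, so no difference was detectable at this depth. The BCSC effect on LMO2 in Hs578T exceeded that in HCC70 by 0.84 on the log2(TPM + 1) scale, a value that the selection in Hs578T fixes in part and that is given without a test.

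**Figure D1:**
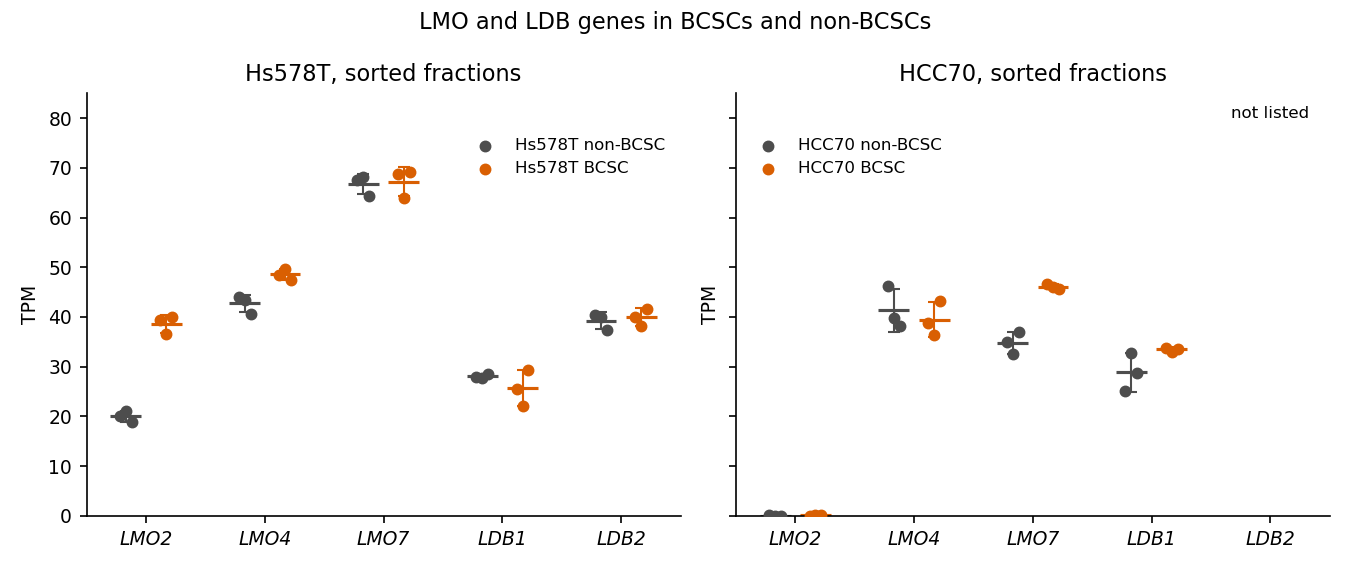
TPM of the 5 genes in each sorted library of Hs578T (left) and HCC70 (right); points are libraries, wide bars means and thin bars SD (n = 3), grey for non-BCSCs and orange for BCSCs. LMO2 lay at 18.9 to 21.1 TPM in Hs578T non-BCSCs, at 36.6 to 39.9 TPM in Hs578T BCSCs and near 0 in HCC70, and LMO7 was separated between the fractions of HCC70 but not of Hs578T.

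Markers of the cell types in which LMO2 is best known were at low levels in Hs578T. The summed level of 8 haematopoietic markers ranged over 3.69 to 5.05 TPM in non-BCSCs and over 3.72 to 4.26 TPM in BCSCs, nearly all of it the actin regulator CORO1A, and PTPRC, which encodes the leukocyte antigen CD45, did not exceed 0.189 TPM. The 7 of 8 endothelial markers listed summed to 3.84 to 4.23 TPM in non-BCSCs against 3.70 to 3.86 TPM in BCSCs, mainly PECAM1. Neither list had BCSC values above those of non-BCSCs as a group. Of 3 epithelial markers tested between the same fractions, the keratin gene KRT18 rose by 0.28 (adjusted P = 0.03), while KRT8 and the splicing factor gene ESRP1 had log2 fold changes of -0.20 and 0.29 that did not pass (adjusted P = 0.17 each). The other 5 were below the filter, among them EPCAM with 0.279 against 0.104 TPM and CLDN4 with 0.254 against 0.0814 TPM. Limma thus called 1 of the 3 tested, against 7.15% of all genes (3 at an unadjusted P under 0.05, and 2 by edgeR). All 8 epithelial markers summed to 323 to 352 TPM in non-BCSCs and 384 to 426 TPM in BCSCs. Of 8 mesenchymal markers tested, 1 rose (AXL) and 3 fell (FN1, SPARC and COL1A2), again beside 7.15% of all genes called. The part of these differences in the LMO2 values was not tested.

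LMO4, the LIM-only factor of mammary epithelium, was at 44.1, 43.4 and 40.7 TPM in Hs578T non-BCSCs and at 48.5, 49.7 and 47.5 TPM in Hs578T BCSCs. The groups did not overlap, but the log2 fold change of 0.18 (SE 0.05, 95% interval 0.07 to 0.29) missed the threshold (adjusted P = 0.065 by limma). Rescaling by the median of ratios gave 0.21 with an adjusted P of 0.026, quantile normalization an adjusted P of 0.047 and edgeR on recovered reads an adjusted P of 0.0092, so the call depends on the scaling and tool. In HCC70, LMO4 was at 46.3, 39.7 and 38.1 TPM in non-BCSCs and at 38.7, 36.3 and 43.3 TPM in BCSCs. These groups overlapped (log2 fold change -0.07, 95% interval -0.28 to 0.15, adjusted P = 0.70). The difference between the effects in the 2 lines was 0.25 (95% interval 0.01 to 0.48) and did not pass (adjusted P = 0.17).

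LMO7, the junction protein of the set, differed between the fractions in HCC70. It was at 67.5, 68.2 and 64.4 TPM in Hs578T non-BCSCs and at 68.7, 64.0 and 69.1 TPM in Hs578T BCSCs, with overlapping groups and a log2 fold change of 0.01 (95% interval -0.10 to 0.12, adjusted P = 0.91). In HCC70 it was at 34.9, 32.5 and 37.0 TPM in non-BCSCs and at 46.7, 46.0 and 45.6 TPM in BCSCs. All HCC70 BCSC libraries were above all non-BCSC libraries, and LMO7 rose by 0.40 (SE 0.06, adjusted P = 0.022), 46.1 ± 0.532 against 34.8 ± 2.28 TPM (SD, n = 3). The BCSC effect in Hs578T minus that in HCC70 was -0.39 (95% interval -0.55 to -0.22, adjusted P = 0.012). The HCC70 call was lost without non-BCSC replicate 2 (adjusted P = 0.057) and without BCSC replicate 1, 2 or 3 (adjusted P = 0.11, 0.083 and 0.078), with log2 fold changes of 0.35 to 0.44 over all libraries left out in turn. The summed level of 8 epithelial markers in HCC70 was 5694 to 6433 TPM in non-BCSCs against 5802 to 6647 TPM in BCSCs. Limma called 0 of them (2 at an unadjusted P under 0.05, and 0 by edgeR), against 2.83% of all genes.

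LDB1, the main dimerizing cofactor, was at 28.0, 27.8 and 28.6 TPM in Hs578T non-BCSCs and at 25.5, 22.1 and 29.3 TPM in Hs578T BCSCs. The groups overlapped, since 1 BCSC library was above and the other two were below all non-BCSC libraries (log2 fold change -0.14, 95% interval -0.35 to 0.07, adjusted P = 0.42). In HCC70, LDB1 was at 25.0, 32.7 and 28.8 TPM in non-BCSCs and at 33.8, 33.0 and 33.6 TPM in BCSCs, without overlap but with a log2 fold change of 0.22 that did not pass (95% interval 0.00 to 0.43, adjusted P = 0.20). The separation held in TPM only: by CPM of the recovered reads the ranges overlapped, 27.2 to 36.4 in non-BCSCs and 35.1 to 35.7 in BCSCs. The difference between the lines was -0.36 (adjusted P = 0.13, and 0.048 without Hs578T BCSC replicate 3). LDB2, its paralogue, was at 40.5, 40.0 and 37.3 TPM in Hs578T non-BCSCs and at 40.0, 38.1 and 41.7 TPM in Hs578T BCSCs. The log2 fold change of LDB2 was 0.02 (95% interval -0.10 to 0.15, adjusted P = 0.83), and per length it was the more abundant LDB gene in every Hs578T library.

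Of the 4 members of Hs578T other than LMO2, limma called 0 at an adjusted P under 0.05 (1 at an unadjusted P under 0.05, and 1, LMO4, by edgeR), against 7.15% of all genes tested, and 1 of the 4 had groups without overlap, against 29.0% of genes. In HCC70, 1 of 3 members was called, against 2.83% of genes, and 2 of 3 (LMO7, and LDB1 in TPM only) had groups without overlap, against 30.9% of genes. The interaction of fraction and line called 1 of 3 members besides LMO2, against 8.10% of genes.

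In MDA-MB-231 cells with sgCtrl or KIF20A sg1, LMO2 was below the filter. It had 24, 36 and 20 reads in sgCtrl, or 0.527, 0.738 and 0.401 as normalized values, and 26, 20 and 48 reads in sg1, or 0.543, 0.403 and 1.14. The groups overlapped, and the ratio of reads was 1.21 (95% exact interval for counting error 0.887 to 1.65). These counts were all even, as were those of some other low genes, such as CD24 and BEX2, but not LHX4 or LDB3. Both mates of a pair may thus have been counted, and an interval that treats reads as independent may be too narrow. LMO4 was at 40.5, 48.8 and 53.9 in sgCtrl and at 51.4, 54.4 and 41.5 in sg1 (log2 fold change 0.04, 95% interval -0.29 to 0.37, adjusted P = 0.96). LMO7 was at 57.6, 63.9 and 70.2 in sgCtrl and at 86.3, 95.6 and 64.9 in sg1. Its sg1 replicates 1 and 2 were above every control and replicate 3 was within their range (log2 fold change 0.35, 95% interval 0.00 to 0.69, adjusted P = 0.69).

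LDB1 was at 87, 85 and 68.5 in sgCtrl and at 66.9, 71.7 and 69.3 in sg1, again with overlap (log2 fold change -0.20, 95% interval -0.48 to 0.08, adjusted P = 0.73). LDB2 had 0 reads in each sgCtrl library and 4, 6 and 10 reads in the sg1 libraries. Set against an assumed floor of 3 reads over the control group, the ratio of sg1 to sgCtrl for LDB2 was 6.85, which is not a lower bound. The exact 95% interval for counting error of the ratio had a lower limit of 5.07, and may be too narrow here as well, since these counts were even. LDB2 stayed at a level of 0.239 or less, below the filter, and did not pass in limma when no filter was used (adjusted P = 0.86). In this comparison limma called 0 of 3 members (1, LMO7, at an unadjusted P under 0.05, and 0 by edgeR and DESeq2), against 0.00% of all genes, where 899 of 12852 genes had an unadjusted P under 0.05, edgeR called 0 and DESeq2 called 11. Of the 3 members, 0 had groups without overlap, against 13.0% of genes.

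**Figure D2:**
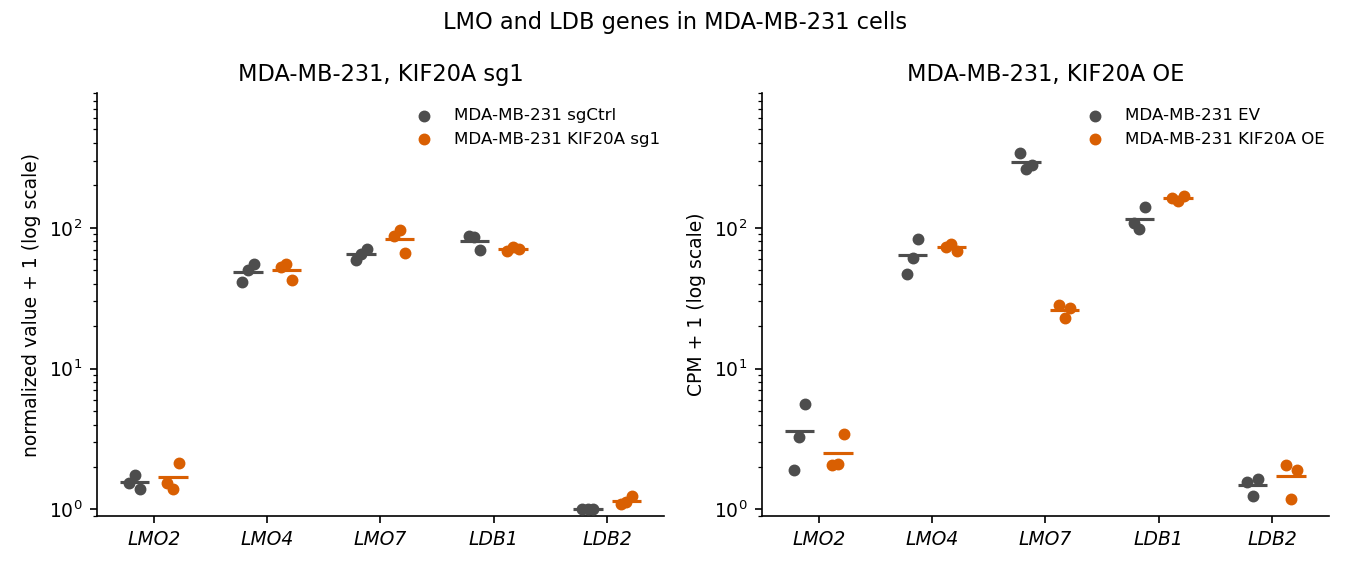
Normalized value + 1 with sgCtrl or KIF20A sg1 (left) and CPM + 1 with EV or KIF20A OE (right) of the 5 genes, on log axes. Each library was labelled MDA-MB-231. Points are libraries and bars means (n = 3). LMO2 and LDB2 lay near the bottom of both panels, and LMO7 was 261 to 339 CPM in EV and 21.9 to 27.4 CPM in the OE-labelled libraries.

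LMO7 showed the largest difference of the 4 members tested between the OE-labelled libraries and EV. It was at 339, 261 and 277 CPM in EV and at 27.4, 21.9 and 25.9 CPM in the OE-labelled libraries, with no overlap. The means of 292 ± 41.0 and 25.0 ± 2.82 CPM (SD, n = 3) made LMO7 11.7-fold higher in EV, a log2 fold change of -3.49 (SE 0.14, adjusted P = 3.5e-07). LMO4 was at 45.7, 60.2 and 81.8 CPM in EV and at 72.1, 75.3 and 66.9 CPM in the OE-labelled libraries. The groups of LMO4 overlapped, and its log2 fold change of 0.23 did not pass (95% interval -0.24 to 0.69, adjusted P = 0.34), became -0.14 after rescaling by the median of ratios, and was 0.44 without EV replicate 3 (adjusted P = 0.042).

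LDB1 was at 108, 96.8 and 139 CPM in EV and at 161, 154 and 167 CPM in the OE-labelled libraries. It was higher in all 3 of them, with a log2 fold change of 0.50 (SE 0.15, adjusted P = 0.014), but genes of this table had a median change of 0.37 (log2). Rescaled by the median of ratios, which brought that median to 0.03, LDB1 differed by 0.14 (adjusted P = 0.41), and edgeR and DESeq2 on recovered reads gave 0.14 as well (adjusted P = 0.41 and 0.45); it also missed the threshold without KIF20A OE replicate 3 (adjusted P = 0.053). LMO2 was at 0.905, 2.27 and 4.64 CPM in EV, on 19, 47 and 79 reads, and at 1.06, 1.08 and 2.41 CPM in the OE-labelled libraries, on 17, 24 and 45 reads. The EV libraries differed among themselves by more than the groups did, and the log2 fold change of -0.42 did not pass (95% interval -1.33 to 0.49, adjusted P = 0.37); quantile normalization gave -0.96 with an adjusted P of 0.043. The LMO2 value was -0.03 without EV replicate 3 and -0.81 without EV replicate 1, and edgeR and DESeq2 on recovered reads gave -1.10 each, none of which passed (adjusted P = 0.94, 0.068, 0.15 and 0.17). Summed endothelial markers were 169 to 356 CPM in EV and 1.18 to 36.4 CPM in the OE-labelled libraries, and summed haematopoietic markers 37.7 to 111 and 12.4 to 19.2 CPM; their part in the LMO2 values was not tested.

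LDB2 had 12, 5 and 11 reads in EV and 17, 4 and 17 reads in the OE-labelled libraries, below the filter and with overlap (ratio 1.40, 95% exact interval for counting error 0.838 to 2.37). In this comparison 2 of 4 members were called, against 69.7% of all genes, and 2 of 4 had groups without overlap, against 74.1% of genes.

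**Figure D3:**
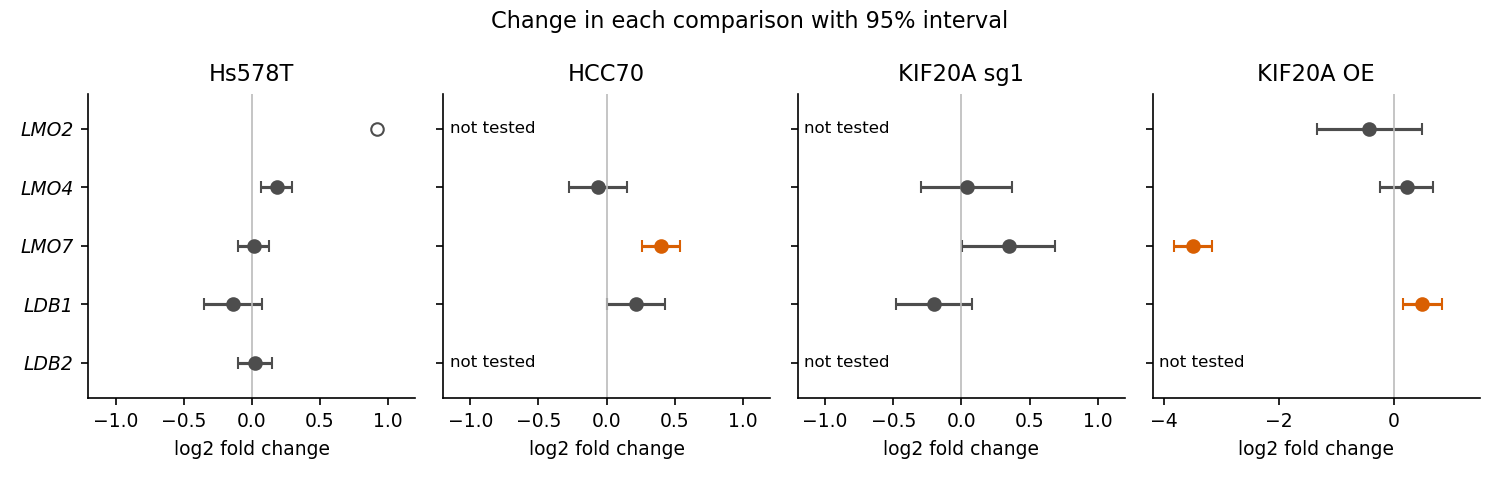
Log2 fold change of each gene (BCSC minus non-BCSC, KIF20A sg1 minus sgCtrl, KIF20A OE minus EV; log2(value + 1) scale) with its 95% interval from limma; orange marks an adjusted P under 0.05, the open circle is LMO2 in Hs578T, on which it was selected, and the last panel has a wider axis. LMO7 passed in HCC70 at 0.40 and with KIF20A OE at -3.49, and LDB1 with KIF20A OE at 0.50.

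To set the 8 conditions side by side, CPM of the recovered reads were used, although the tables were counted and normalized separately and carry no test between them. LMO2 ran from 39.5 ± 1.34 in Hs578T BCSCs and 20.2 ± 0.833 in Hs578T non-BCSCs down to 2.61 ± 1.89 in EV, 1.52 ± 0.771 in KIF20A OE, 0.698 ± 0.406 in sg1, 0.555 ± 0.165 in sgCtrl, 0.0745 ± 0.0464 in HCC70 BCSCs and 0.0241 ± 0.0213 in HCC70 non-BCSCs (SD, n = 3 each). Hs578T thus stood alone, while neighbouring ranges overlapped from EV to sgCtrl and between the HCC70 fractions.

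LDB2 had the same leading line, at 45.4 ± 1.35 and 44 ± 1.29 such CPM in Hs578T BCSCs and non-BCSCs, with overlapping ranges. It was at most 1.06 in any library labelled MDA-MB-231. LMO4 was detected throughout, from 111 ± 4.22 in Hs578T BCSCs to 47.7 ± 6.08 in sgCtrl. Ranges of neighbouring conditions in that order overlapped except between the Hs578T fractions and between HCC70 BCSCs and KIF20A OE. LDB1 had the reverse order of lines, 161 ± 6.63 in KIF20A OE, 115 ± 21.7 in EV, 80.3 ± 10.9 in sgCtrl and 68.9 ± 1.80 in sg1, and 28.9 to 35.4 on average in the sorted lines, whose ranges overlapped from one condition to the next.

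LMO7 spread widely among the conditions labelled MDA-MB-231, with EV highest and the OE-labelled libraries lowest. It was at 292 ± 41.0 such CPM in EV, 81.6 ± 14.2 in sg1, 63.9 ± 5.47 in sgCtrl and 25.0 ± 2.82 in KIF20A OE, with 243 ± 7.23 and 237 ± 3.87 in Hs578T BCSCs and non-BCSCs and 156 ± 3.41 and 122 ± 6.34 in HCC70 BCSCs and non-BCSCs. The controls EV and sgCtrl of the same cell line thus lay farther apart for LMO7 than sg1 did from sgCtrl, and experiment, vector and counting cannot be told apart between them. Neighbouring ranges overlapped only between the Hs578T fractions and between sg1 and sgCtrl.

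In GRCh38, as annotated by GENCODE 44, LMO2 lies on chr11:33858576-33892076 on the minus strand, LMO4 on chr1:87328880-87348923 and LMO7 on chr13:75620434-75859870, both on the plus strand, and LDB1 on chr10:102106489-102120368 and LDB2 on chr4:16501541-16898678, both on the minus strand. Values cover the exons of a gene. LMO7 shares 1283 of its 14371 exon bases with a long non-coding gene of the same strand and 62 with LMO7-AS1 of the other strand, and LDB2 shares 124 of 5455 with an antisense gene, so reads in those stretches are uncertain. The exons of LMO2, LMO4 and LDB1 overlap no other annotated exon.

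The genes whose pattern was most like that of LMO2 were ITGA8, IL6, SLC7A2, ADORA2B and OCLN, with Pearson's r of 0.997 to 0.998 over the 6 Hs578T libraries, the only ones of the sorted and sg1 tables with LMO2 at a mean of at least 1. With 2 groups of 3 libraries, such values mostly state that a gene was also higher in BCSCs, and the libraries are the ones LMO2 was selected on. Their own log2 fold changes in Hs578T were 0.58 for ITGA8, an integrin subunit, 0.53 for IL6, a cytokine, 0.55 for the amino acid transporter SLC7A2, 0.25 for the adenosine receptor gene ADORA2B and 0.49 for OCLN, which encodes the tight junction protein occludin. Over the same libraries r with LMO2 was 0.92 for LMO4, 0.26 for LMO7, -0.46 for LDB1 and 0.34 for LDB2.

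LMO4 was compared over the 18 libraries of the Hs578T, HCC70 and sg1 tables, each table centred on its own mean. The most similar of 10037 genes were CREG1 (r = 0.938), ABHD17C (0.918), PPP3CA (0.909), CD164 (0.90) and KIFBP (0.894). The points share their libraries and scaling, so these are descriptions only. Among these genes ABHD17C, a depalmitoylase, rose in Hs578T BCSCs by 0.32 (adjusted P = 0.017), while the log2 fold changes of the others in the 3 tables ranged from -0.11 to 0.19 without a pass. Over the 18 libraries r with LMO4 was 0.34 for LMO7 and -0.54 for LDB1.

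Of the 20 complex components and partners of LMO and LDB proteins listed, 14 were tested in Hs578T, and 2 rose and 2 fell in BCSCs, 4 of 14 against 7.15% of all genes, with a median of 0.11 against -0.01. Of 3 GATA factors tested, which can sit in such complexes, GATA6 and GATA2 rose: GATA6 from 22.9 ± 1.35 to 34.2 ± 5.21 TPM (log2 fold change 0.55, adjusted P = 0.019) and GATA2 from 25.0 ± 0.665 to 34.0 ± 2.83 TPM (0.43, adjusted P = 0.0089). GATA3 had a log2 fold change of 0.10 with overlapping groups (adjusted P = 0.58). Of the 3 E proteins, helix-loop-helix partners of TAL1, TCF12 and TCF4 fell and TCF3 had a log2 fold change of 0.14 that did not pass (adjusted P = 0.49). TCF12 fell from 65.9 ± 2.53 to 57.1 ± 0.861 TPM (-0.20, adjusted P = 0.037), and TCF4 from 6.91 ± 0.271 to 5.24 ± 0.235 TPM (-0.34, adjusted P = 0.019, n = 3 each). TAL1, the classical partner of LMO2 in blood cells, averaged no more than 0.0205 TPM in either fraction. SSBP2 and SSBP3, which stabilize LDB1, had log2 fold changes of -0.18 and -0.15 that did not pass (adjusted P = 0.099 and 0.15).

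In HCC70, limma called 0 of 14 partners tested (4 at an unadjusted P under 0.05, and 1 of 13 by edgeR), against 2.83% of all genes. Their median was -0.02 against 0.02 for all genes. GATA2 averaged 22.4 TPM in non-BCSCs against 20.0 TPM in BCSCs there, and GATA3, the luminal GATA factor, 32.3 and 31.1 TPM. With sg1, 0 of 14 partners passed (1 at an unadjusted P under 0.05, and 0 by edgeR and DESeq2), against 0.00% of all genes, with a median of -0.18 against 0.00. Between the OE-labelled libraries and EV, 6 partners were higher and 5 lower of 15 tested, a share near the 69.7% of all genes called, with a median of 0.30 against 0.37, and 4 were higher and 6 lower after rescaling by the median of ratios. BEX2, an LMO2-binding protein, was at 2.04 ± 2.18 CPM in EV against 90.5 ± 20.6 CPM in the OE-labelled libraries, GATA2 at 5.87 ± 1.57 and 49.2 ± 5.18 CPM, TCF4 at 5.66 ± 2.16 and 36.5 ± 1.55 CPM, and IL6ST, the shared receptor subunit of IL6-type cytokines, at 256 ± 6.32 and 85.8 ± 9.25 CPM (n = 3 each).

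LIM-homeodomain factors, which also bind LDB1 through their LIM domains, were mostly too low to test outside the OE-labelled libraries. Of 12 listed, 1 was tested in Hs578T, 1 in HCC70 and 2 with sg1. Limma called 0 in each (0 at an unadjusted P under 0.05), against 7.15%, 2.83% and 0.00% of all genes. EdgeR and, for sg1, DESeq2 also called 0. Between the OE-labelled libraries and EV, 8 of 9 tested were higher and 0 lower, beside 69.7% of all genes called in either direction, with a median of 2.62 against 0.37 for all genes. However, LHX1, LHX2, LHX8, ISL1, ISL2 and LMX1B averaged only 0 to 0.110 CPM in EV. They passed the filter through the OE-labelled libraries alone, so the count and the median cannot tell a direction for them. LHX4 and LHX6, at 1.45 and 2.42 CPM in EV, were at 8.11 and 9.56 CPM in the OE-labelled libraries. ISL2, a motor neuron factor, was listed at 0 in EV and at 24.8 ± 3.07 CPM in the OE-labelled libraries, and LMX1B, a limb and kidney factor, at 0.110 ± 0.118 and 20.9 ± 6.20 CPM.

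Cytoskeletal LIM proteins share the fold but sit on actin and focal adhesions. Of 27, 25 were tested in Hs578T, where LIMD1 rose (0.20) and CSRP2 and LPP fell (-0.29 and -0.21), 3 of 25 against 7.15% of all genes, with a median of -0.04 against -0.01. In HCC70 limma called 0 of 21 (6 at an unadjusted P under 0.05, and 2 by edgeR), against 2.83% of all genes. With sg1 it called 0 of 25 (3 at an unadjusted P under 0.05, 0 by edgeR and DESeq2), against 0.00% of genes. Between the OE-labelled libraries and EV, 15 were lower and 4 higher of 26, beside 69.7% of all genes called, or 19 lower and 2 higher after rescaling by the median of ratios, with a median of -0.84 against 0.37. CSRP1 was at 195 ± 14.8 CPM in EV against 1.57 ± 0.580 CPM in the OE-labelled libraries, CRIP2 at 130 ± 24.4 and 7.36 ± 2.43 CPM, LASP1 at 706 ± 29.7 and 45.9 ± 4.23 CPM, and LIMS2 at 34.2 ± 3.16 and 2.63 ± 0.695 CPM.

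Partners of LMO7 at junctions and the nuclear envelope were given beside its own values. Limma called 0 of 7 in Hs578T (1 at an unadjusted P under 0.05, and 1 by edgeR), against 7.15% of all genes. In HCC70 it called 0 of 6 (3 at an unadjusted P under 0.05, and 0 by edgeR), against 2.83% of genes. With sg1 it called 0 of 7 (0 at an unadjusted P under 0.05, and 0 by edgeR and DESeq2), against 0.00% of genes. With so few genes, such counts cannot tell the lists from all genes. Between the OE-labelled libraries and EV, 5 of 7 were lower and 1 higher, beside 69.7% of all genes called, with a median of -1.36 against 0.37. The actin crosslinkers ACTN1 and ACTN4 were at 681 ± 62.3 and 1550 ± 112 CPM in EV and at 144 ± 14.0 and 339 ± 20.2 CPM in the OE-labelled libraries. NECTIN1, a junction adhesion molecule, was at 101 ± 5.30 and 35.3 ± 8.09 CPM, and EMD, which encodes emerin, went the other way, from 75.9 ± 24.5 to 270 ± 21.9 CPM (n = 3 each). Epithelial markers moved as widely in these libraries, with 6 lower and 1 higher of 7 tested, and summed to 1883 to 2191 CPM in EV and 372 to 477 CPM; their part in the LMO7 values was not tested.

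**Figure D4:**
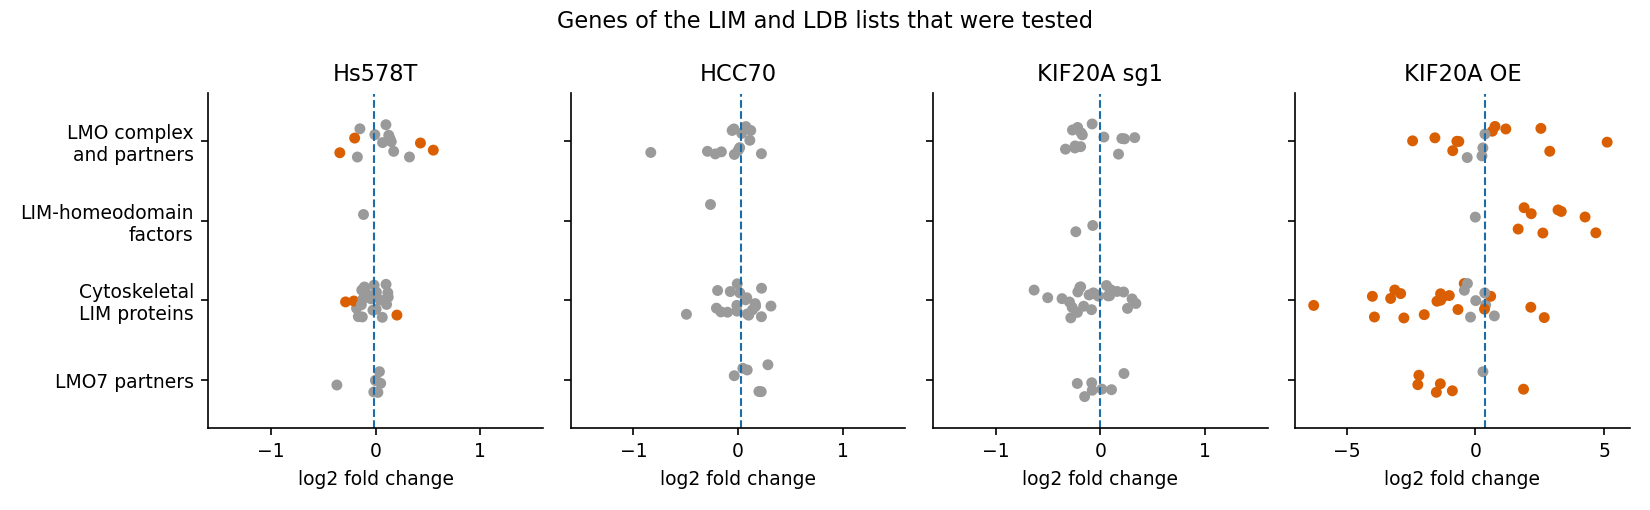
Log2 fold change (log2(value + 1) scale) of each tested gene of 4 lists in the 4 comparisons, each point 1 gene; orange marks an adjusted P under 0.05 by limma, the dashed line is the median of all genes tested, and the last panel has a wider axis. Calls were few in Hs578T and 0 in HCC70 and with sg1, beside 7.15%, 2.83% and 0.00% of all genes. With KIF20A OE, 8 of 9 LIM-homeodomain factors lay above the line and most cytoskeletal LIM proteins and LMO7 partners below it. Many of these LIM-homeodomain factors passed the filter through the OE-labelled libraries alone, which fixed their direction.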

How the data were processed

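The authors aligned paired-end reads of stranded poly-A libraries to GRCh38, and the submitters' processing notes name HISAT2 2.0.5 and featureCounts 1.5.0-p3. For Hs578T and HCC70, the deposited values are TPM, values per transcript length that sum to 1000000 per library. The deposited table with sg1 holds a signal, reads the authors divided by 1 factor per library (column totals 977394 to 1028621), and the deposited table with KIF20A OE holds CPM, without a length term. Whole reads were recovered from the steps of the values for 100% of rows and may be too low for some TPM genes by a common divisor. Counts of many low genes in the table with sg1 were even, so both mates of a pair may have been counted there. Its depth may then not compare with that of the other tables.

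Genes with a mean of at least 1 were tested within each table on log2(value + 1), by limma 3.58.1 in R 4.3.3 with a trend in the prior variance, two-sided, with Benjamini-Hochberg adjustment over all genes. The 12 sorted libraries were also fitted with an interaction of fraction and line, where line is also the batch. All fold changes are on that scale, which understates those of low genes. Alternatives were a pseudocount of 0.1, a minimum of 10 or none, 2 rescalings, a replicate block, each library left out, and, on recovered reads, edgeR 4.0.16 and DESeq2 1.42.0; edgeR in the sorted lines was added after the data were seen. The fit was tested on simulated data.

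The members and lists were chosen with earlier results of these data known. List genes named as examples had passed and reached a mean of 10 in a group, up to the 4 with the largest change per list and comparison; TCF4, TCF3 and GATA3 in Hs578T, TAL1, SSBP2, SSBP3, and GATA2 and GATA3 in HCC70 were named after their values were seen, as were the markers given singly. Of the libraries, 24 were used and 0 sample columns were left out. Replicates are those of the labels, and no 2 agreed within sampling noise. Figures were drawn with matplotlib 3.10.9.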

Additional observations from a re-analysis of the deposited data

Results flagged for a closer look

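The BCSC effect on LMO7 differed between the lines by a test of the difference itself. The effect in Hs578T minus that in HCC70 was -0.385 on the log2 scale (adjusted P = 0.012 by limma), with all 3 HCC70 BCSC libraries above the non-BCSC libraries and overlapping groups in Hs578T. The call within HCC70 depended on single libraries, with an adjusted P of 0.035 to 0.11 by limma as each was left out. Line and batch cannot be told apart here.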

How the results depend on the processing

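Over the alternatives, the log2 fold change of LMO2 in Hs578T, given without a test, stayed at 0.88 to 0.97, and its excess over HCC70 fell to 0.45 with a pseudocount of 0.1. LMO7 with KIF20A OE passed under every alternative (-3.90 to -3.38). LMO4 with KIF20A OE turned sign, from 0.227 to -0.135 by median of ratios, -0.151 by edgeR and -0.150 by DESeq2. With 1 library left out, values near 0 turned sign for LMO4 in HCC70 (-0.133 to 0.017) and with sg1 (-0.072 to 0.154). So did those for LDB2 in Hs578T (-0.012 to 0.058) and LMO7 in Hs578T (-0.012 to 0.047).

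Genes called in Hs578T, 953 (386 higher, 567 lower), became 1738 by edgeR, 1193 (620 and 573) by median of ratios, and 342 to 880 without 1 library (487, 342 and 394 without non-BCSC replicates 1 and 2 and BCSC replicate 1). In HCC70, 374 (301 and 73) became 178 without a filter, 233 by median of ratios, 236 by quantile normalization, 747 (414 and 333) by edgeR and 32 to 247 without 1 library, whichever it was. With sg1, 0 became 11 by DESeq2 and 0 to 144 without 1 library (144 without sgCtrl replicate 3, 5 without sg1 replicate 2). With KIF20A OE, the 10634 calls (7055 and 3579) split into 5129 and 5007 by median of ratios, and were 9700 to 10289 without 1 library. The interaction, 1110 genes (248 and 862), gave 479 and 591 by median of ratios and 440 to 1425 without 1 library. The cause of these moves was not tested.

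The replicate numbers did not pair the samples (correlations of deviations -0.161 to 0.185). With a replicate block, HCC70 gave 128 genes, the interaction 408, LMO7 in HCC70 an adjusted P of 0.063 and its difference between lines 0.054; no other member's call changed. LMO2 in HCC70 rested on 0 to 4 reads per library and LDB2 in the libraries labelled MDA-MB-231 on 0 to 17.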
